A study of Mus musculus with 6 samples.

Results

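PLZF, the product of Zfp145 (now named Zbtb16), represses transcription and carries a BTB domain beside its zinc fingers. Repressors of this family act through corepressors: the SIN3 proteins are scaffolds that hold class I histone deacetylases, and NCoR holds the deacetylase HDAC3. Deacetylases remove acetyl groups from histone tails, which goes with closed chromatin, and PLZF is known for keeping spermatogonial stem cells in the testis. The genes described here are 9 partners of that machinery: the deacetylases Hdac1, Hdac2, Hdac3, Hdac5, Hdac6 and Hdac7, and the corepressors Sin3a, Sin3b and Ncor1.

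Probe sets were taken where the platform annotation gives one of these as their single gene symbol. This found 9 probe sets for 8 of the 9 genes, all on the U74Av2 chip, out of 12422 probe sets on that chip and 36701 on all 3 chips. Sin3b had 2 probe sets and the others 1 each. Ncor1 had none under its symbol and is not analysed here. The U74Bv2 and U74Cv2 chips held no probe set of these genes.

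The 6 arrays carried total RNA labelled as from spermatogonia, which are germ cells that still divide by mitosis, of mice 1 week old. Markers of other cell types were also bright on these arrays, as given below. The null group was labelled as a Zfp145 knockout and the control group as WT, with 1 array of each on each of 3 chips that carry different probe sets. Both groups shared the mixed background, written 129sv/c57Bl6, 129sv-C57Bl/6 or 129sv-C57BVl-6 in the labels. The labels name no allele and no number of animals, and they leave unsaid whether 1 RNA sample per genotype went onto every chip. Each value was thus read once, differences could not be checked against replicates, and no test was run. Precision is limited by the number of arrays.

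Intensities are linear and given as deposited. The log2 ratio is that of null over wild type after scaling on each chip. Values under a floor of 98.3 on U74Av2, the 40th percentile of both arrays, were raised to it for the ratio. The one yardstick at hand is how far log2 ratios of different probe sets for 1 gene scatter on this chip. That spread was 0.35 for dim, 0.27 for middling and 0.16 for bright probe sets. Such probe sets were read on the same pair of arrays. Error that they share, as from RNA preparation or labelling, is therefore not in the spread. Nor does it cover the spread between animals.

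The targeted gene was lower in the null arrays. Zbtb16 had an intensity of 158.1 on the null array and 770.2 on the wild-type array of U74Av2, a log2 ratio of -2.29. On U74Cv2 it had 510.8 on the null and 1156.8 on the wild-type array, a log2 ratio of -1.20. The second U74Av2 probe set, at 16.7 on the null and 50.6 on the wild-type array, was under the floor on both.

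None of the 9 deacetylase and SIN3 probe sets differed by 2-fold, where 0.908% of the 7822 probe sets above the floor on at least 1 U74Av2 array did. None differed by 1.5-fold either, against 7.34% of the chip. At 1.2-fold there were 2 of 9, against 35.3%. Their median absolute log2 ratio was 0.20, and that over the chip 0.19. Most of the 9 were bright probe sets, for which the spread was smallest, while the chip pool also holds dim ones. These comparisons with the chip were not matched for level. The signed median was -0.14, against -0.01 over the chip. The ratio lay above 0 for 3 of the 9 and for 48.1% of the chip. All 9 cleared the floor on an array or more, and 8 of the 9 on both.

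**Figure D1:**
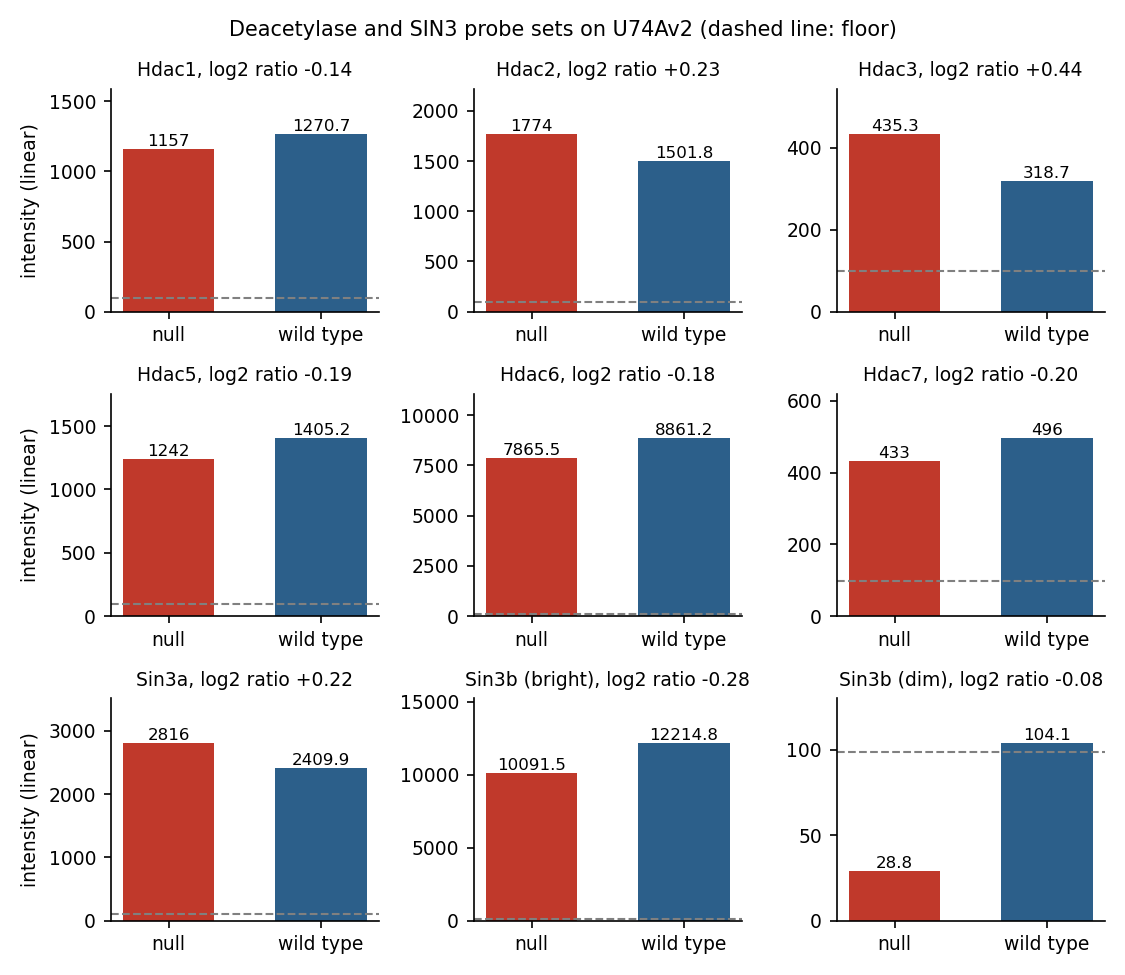
Deposited intensity (linear, vertical axes starting at 0) of each deacetylase and SIN3 probe set on the null array (red, left) and the wild-type array (blue, right) of U74Av2, 1 array each, so no error bars are drawn. Each panel has its own scale, since levels of different probe sets are not comparable. Hdac2, Hdac3 and Sin3a were higher on the null array, and only the dim Sin3b probe set reached the floor of 98.3 (dashed).

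The class I deacetylases, the nuclear enzymes that sit in corepressor complexes, did not share a direction. Hdac1, the catalytic subunit shared by the SIN3, NuRD and CoREST complexes, had an intensity of 1157 on the null array and 1270.7 on the wild-type array (probe set 96046_at). Its log2 ratio was -0.14, smaller than the spread of 0.16 at that level. Hdac2, the close paralogue of Hdac1 that is found in the same complexes, had 1774 on the null array and 1501.8 on the wild-type array (160643_at), a log2 ratio of 0.23. Its paralogue was thus on the other side of 0. Within the same pair of arrays the ratio of Hdac2 exceeded that of Hdac1 by 0.38, or 1.30-fold, a difference that array scaling by a constant cannot alter. The spread expected of such a difference between probe sets was 0.23.

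Hdac3, the deacetylase of the NCoR and SMRT complexes, had 435.3 on the null array and 318.7 on the wild-type array (103655_at). The log2 ratio of 0.44, or 1.36-fold, had the largest size among the 9 probe sets and was 1.61 times the spread of 0.27 at its level. It exceeded the ratio of Hdac1 by 0.59, where the spread of the difference was 0.32, and that of Hdac2 by 0.21, which was within it. The genes of the complex that holds Hdac3 are given below with the other partners.

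The class II deacetylases on this chip were all slightly lower on the null array. Hdac5, which shuttles between nucleus and cytoplasm and binds MEF2 factors, had 1242 on the null array and 1405.2 on the wild-type array (104376_at), a log2 ratio of -0.19. Hdac7, of the same subclass, had 433 on the null array and 496 on the wild-type array (97550_at), a log2 ratio of -0.20 that was smaller than the spread of 0.27. Hdac6, a mostly cytoplasmic enzyme that deacetylates tubulin, had 7865.5 on the null array and 8861.2 on the wild-type array (104471_at), a log2 ratio of -0.18. The ratios of Hdac5 and Hdac7 differed by 0.02 and those of Hdac6 and Hdac5 by 0.01, far inside the spread. The shift of Hdac5 and of Hdac6 was 1.15 and 1.12 times the spread. After quantile normalization Hdac6 stood at -0.11, with Hdac5 at -0.21 and Hdac7 at -0.22, and after loess it stood at -0.13, so its value then lay within the spread of 0.16 and closer to 0 than theirs.

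The SIN3 scaffolds, paralogues that bind the deacetylases through the same kind of domain, went opposite ways. Sin3a had 2816 on the null array and 2409.9 on the wild-type array (103011_at), a log2 ratio of 0.22. The brighter Sin3b probe set had 10091.5 on the null array and 12214.8 on the wild-type array (93789_s_at), a log2 ratio of -0.28, the lowest of the 9 and 1.75 times the spread. The suffix of its name can mark probes shared between transcripts. The ratio of Sin3a exceeded that of Sin3b by 0.50, or 1.41-fold, which was 2.18 times the spread of such a difference.

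The other Sin3b probe set read 28.8 on the null array and 104.1 on the wild-type array (93790_at). The null value was under the floor and the wild-type value just above it, so this probe set gives only a bound of -0.08. With a floor at the 20th percentile, or none, its ratio was -1.86 and passed 2-fold. Both Sin3b probe sets were lower on the null array, by amounts that depend on the floor for the dim one.

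Ordered by log2 ratio, the 8 probe sets above the floor on both arrays ran from Hdac3 through Hdac2 and Sin3a to Hdac1, Hdac6, Hdac5, Hdac7 and Sin3b. The step of 0.36 between Sin3a and Hdac1 was the one gap between neighbours that exceeded the spread of a difference, at 0.23. Of the 9 probe sets 6 lay beyond 1 spread from 0 and none beyond 2, with the dim Sin3b probe set counted at its bound. The same shares over the whole chip were not calculated, so these counts cannot be set against other genes. The sign of every probe set was the same under each of the alternative scalings and floors that gave it a value.

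**Figure D2:**
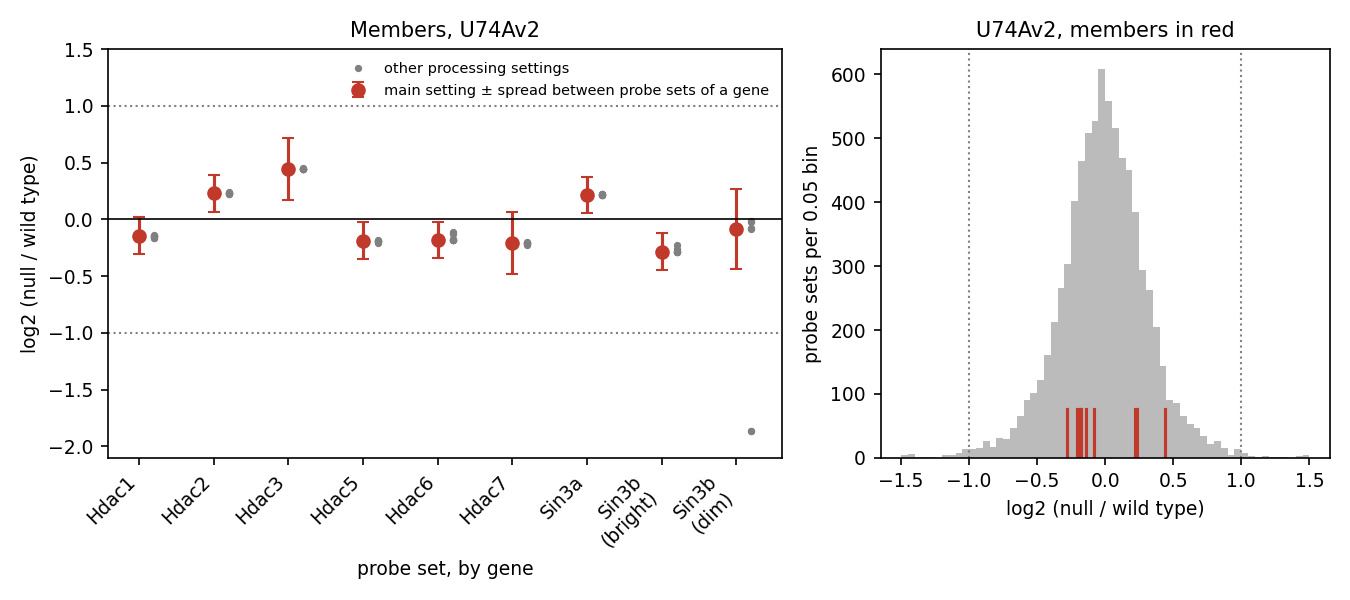
Left, log2 ratio of null over wild type of each deacetylase and SIN3 probe set on U74Av2 (red point), with bars of 1 spread at that level, and the values under the other processing settings (grey points). Right, the number of probe sets per 0.05 of log2 ratio among all U74Av2 probe sets above the floor on at least 1 array (grey, values beyond 1.5 drawn at the edge), with the 9 probe sets as red lines. Dotted lines mark 2-fold, which none of the 9 reached except the dim Sin3b probe set at a low floor or none.

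The RNA held bright signal of other cell types than the label names. By level among U74Av2 probe sets, the Sertoli markers Clu and Aard stood at the 99.6th and 99.5th percentile. The myoid marker Acta2 stood at 96.6 and the erythroid marker Hba-a1 at 96.5. The brighter Dazl probe set, a germ cell marker, stood at 98.0 and Ddx4 at 74.5. Such levels are not comparable in amount between probe sets, and the share of each cell type was not measured. The cell types that the RNA could hold did not have equal signal on the U74Av2 arrays, which carry all 9 probe sets, and the shifts differed between chips. Germ cell markers on U74Av2 were higher on the null array for 3 of 4 probe sets, with summed scaled intensities of 7530 on the null and 5206 on the wild-type array. Such sums follow the brightest probe sets. A single probe set of Dazl, at a log2 ratio of 0.56, made up most of both sums. The probe set that was lower was also of Dazl, at -0.32. Ddx4 at 0.56 and Dppa3 at 0.79 were also higher on U74Av2. Over the 3 chips 6 of 9 measured probe sets of the germ cell list were higher, with a median of 0.25. On U74Av2, U74Bv2 and U74Cv2 48.1%, 50.3% and 49.2% of all measured probe sets lay above 0. Dazl, Ddx4 and Dppa3 were named after their values were seen. The sums were 5046 on the null and 6773 on the wild-type array of U74Bv2, and 18293 on the null and 17741 on the wild-type array of U74Cv2. The brightest genes of the germ cell list were Mov10l1 at a log2 ratio of 0.05 on U74Cv2 and Tex101 at -0.53 on U74Bv2. Each made up most of the sums on its chip. A dimmer Mov10l1 probe set on U74Cv2 gave -0.64. Ddx4 gave 0.25 on U74Cv2, and Mael, named after its value was seen, gave 0.81 on U74Bv2. Sertoli cell markers on U74Av2 were lower for 11 of 12 probe sets, with sums of 44144 on the null and 50958 on the wild-type array. On U74Bv2 1 of 3 was lower and on U74Cv2 3 of 6, and both sums were higher on the null array, at 4906 on the null and 4581 on the wild-type array of U74Bv2 and at 7704 on the null and 7158 on the wild-type array of U74Cv2. Clu gave -0.21 and Aard -0.19 on U74Av2, as the brightest of that list. On that chip 2 Sertoli probe sets were lower by more than 2-fold, where 0.908% of the chip differed by 2-fold. Rhox5 read 523.7 on the null and 1071.6 on the wild-type array, a log2 ratio of -1.04. Tsx read 146.9 on the null and 296.3 on the wild-type array, a log2 ratio of -1.02. Rhox5 and Tsx were named after their values were seen. Macrophage markers were lower for 7 of 8 probe sets on U74Av2, with sums of 4165 on the null and 4694 on the wild-type array, and Leydig cell markers for 5 of 6, with sums of 1548 on the null and 1910 on the wild-type array. The brightest of the macrophage list were Laptm5 at -0.45 and Cx3cr1 at -0.14, both on U74Cv2. Those of the Leydig list were Cyp17a1 at -0.13 and Hsd3b1 at -0.58 on U74Av2. The Leydig probe set that was higher on U74Av2 was of Hsd17b3, at 320.3 on the null and 138.4 on the wild-type array. Its shift passed 2-fold and was the largest of the 6. Hsd17b3 was named after its values were seen.

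The myoid markers Acta2 and Myh11 gave -0.11 and 0.02, the endothelial markers Eng and Cdh5 gave 0.12 and 0.20, and the erythroid markers Hba-a1 and Slc4a1 gave -0.72 and -0.09. Of the 5 spermatid genes 3 were above the floor on some chip. In their brightest probe sets, Acr read 1083.4 on the null and 649 on the wild-type array of U74Cv2, Tnp1 read 720 on the null and 953.1 on the wild-type array of U74Av2, and Prm1 was under the floor on U74Av2 and read 707 on the null and 362.5 on the wild-type array of U74Cv2. Prm2 and Tnp2 were under the floor throughout. The 3 readings above the floor came from probe sets whose names end in r_at. No spermatid gene was above the floor in a probe set without that suffix. On U74Av2 the other Acr probe set read 34.2 on the null and 46.8 on the wild-type array. The other Tnp1 probe set there read 4.3 on the null and 4.7 on the wild-type array. Whether the 3 readings came from spermatid transcripts was not tested. Of the spermatogonial markers 8 of the 9 genes with a probe set were above the floor on some chip. The brightest were Sall4, at -1.32 on U74Cv2 but 0.27 on U74Av2 and 0.63 on U74Bv2, and Stra8 at -0.18. Ret, the GDNF receptor kinase, was under the floor, at 25.3 on the null and 22.6 on the wild-type array. Prm1, Prm2, Tnp2 and Ret were named after their values were seen. Deacetylases and corepressors are known to be expressed broadly. The part of these shifts in the ratios above was not tested, and in such bulk RNA fewer cells of a type and less RNA per cell cannot be told apart.

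The remaining genes of the deacetylase and acetylation machinery were taken from lists drawn up by complex. They came to 116 probe sets of 57 genes, of which 101 probe sets of 55 genes cleared the floor on an array or more of their chip. On U74Av2 0 of 40 differed by 2-fold. On U74Bv2 0 of 43 did, against 1.82% of that chip, and on U74Cv2 1 of 18, against 11.1%. The ratio lay above 0 for 27 of 40 on U74Av2, where 48.1% of the chip did, for 23 of 43 on U74Bv2 (50.3%) and for 8 of 18 on U74Cv2 (49.2%). Medians were 0.09, 0.07 and -0.04, against -0.01, 0.00 and -0.01 over the chips. The same shares of the chips stand beside the counts by list below, which count probe sets of 1 gene separately.

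The one probe set past 2-fold belonged to Hdac11, the single class IV deacetylase. On U74Cv2 it read 81.9 on the null array, under the floor of 124 there, and 468.3 on the wild-type array, a bound of -1.92 on the log2 scale. The Hdac11 probe set on U74Bv2 read 770.3 on the null array and 937 on the wild-type array, a log2 ratio of -0.29, within the spread of 0.34. Both were lower in the null, and the sizes do not match. Without U74Cv2, an alternative added after seeing the data, 0 of the partner genes passed 2-fold.

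Among the other deacetylases, the class II list with Hdac4 and Hdac9 added had 7 of 8 measured probe sets below 0 and a median of -0.14. These 2 genes were named to complete the class after their values were seen. Hdac4 had 4 measured probe sets, of which 1 on U74Bv2 gave 0.79, from 876.4 on the null and 505.7 on the wild-type array, and the other 3 gave between -0.10 and -0.05. Hdac9 gave -0.68 on U74Cv2, from 652.5 on the null and 1026.5 on the wild-type array. The sirtuins, deacetylases that use NAD, had a median of 0.13 over 6 measured probe sets. Sirt1 gave 0.29 and 0.15 in its measured probe sets and Sirt7 gave -0.44.

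The subunits that sit with Sin3a and Sin3b were spread on both sides of 0. The SIN3 list had 15 of 26 measured probe sets above 0 and a median of 0.06. Rbbp7, a histone-binding subunit also found in NuRD, had 5978.8 on the null array and 5596.1 on the wild-type array, a log2 ratio of 0.09. Ing1, a reader of methylated histone H3, gave -0.28 on U74Bv2 and 0.46 on U74Av2. Sap130, a SIN3-associated subunit singled out after its values were seen, was higher on the null array in each of its 3 probe sets, at 0.36, 0.44 and 0.49, all on U74Bv2.

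In the complex that holds Hdac3, 4 of 6 measured probe sets were above 0, with a median of 0.15. Gps2, an integral subunit of NCoR and SMRT, had 3014.6 on the null array and 3065.9 on the wild-type array, a log2 ratio of -0.03. Tbl1x, a WD40 subunit of the same complex, gave 0.04 and -0.06 on U74Av2 and 0.80 on U74Cv2, from 489.8 on the null and 276.3 on the wild-type array. The last value was beyond the spread of 0.48 on that chip, and the other probe sets of the gene did not share its size.

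The NuRD list, a remodelling complex that also carries Hdac1 and Hdac2, had 11 of 13 measured probe sets above 0 and a median of 0.10. On U74Av2 this was 8 of 9, where 48.1% of the chip lay above 0. Some genes gave several of these values, and most of the ratios above 0 were within the spread at their level. The helicase subunit Chd4 gave 0.01 on U74Av2, from 12959.2 on the null and 12749.1 on the wild-type array, and 0.58 and -0.07 on U74Bv2. The CoREST list had 7 of 17 above 0 and a median of -0.05, which turned to 0.01 after loess and 0.02 after quantile normalization. Rcor2, a CoREST scaffold, had 4752.8 on the null array and 5519.4 on the wild-type array, a log2 ratio of -0.22, and Zmym2, a zinc finger subunit, gave -0.04 and 0.41.

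Of the other corepressors 7 of 11 measured probe sets lay above 0, with a median of 0.19. Trim28, the corepressor of KRAB zinc finger proteins, gave 0.26 on U74Av2, from 10106.8 on the null and 8390.4 on the wild-type array, and 0.01 and 0.30 on U74Cv2. Tle5, a Groucho family protein, went the other way, at 2061 on the null and 2808 on the wild-type array, a log2 ratio of -0.46.

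The histone acetyltransferases, which oppose the deacetylases, had 11 of 17 measured probe sets above 0 and a median of 0.09. Crebbp, the coactivator CBP, was higher on the null array in 4 of 5 probe sets. The highest gave 0.70, from 2889.9 on the null array and 1767.8 on the wild-type array of U74Bv2, and the lowest -0.12. Hat1, which acetylates newly made histone H4, gave -0.03 and -0.10.

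**Figure D3:**
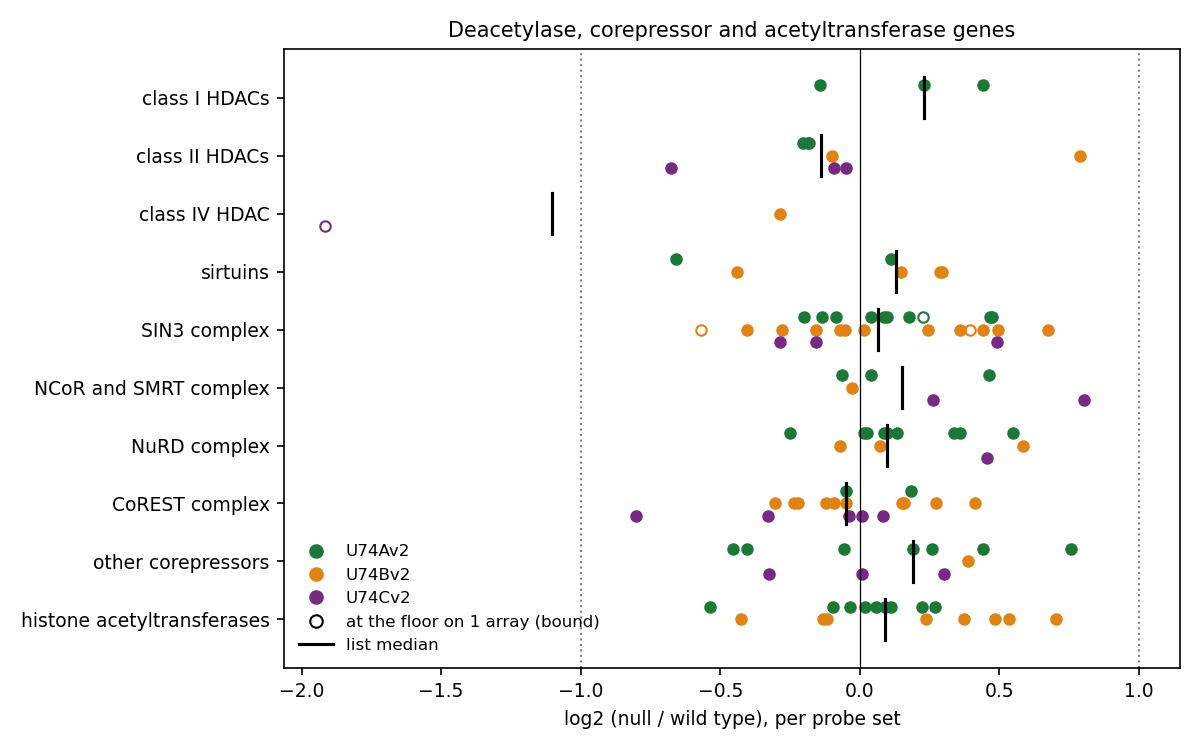
Log2 ratio of null over wild type per probe set (horizontal axis), by gene list, for probe sets above the floor on at least 1 array, coloured by chip, with list medians as black bars, open circles for probe sets at the floor on 1 array, and dotted lines at 2-fold. The class I and II rows include the Hdac members described above, and the SIN3 and NuRD rows share Rbbp4 and Rbbp7. Only the U74Cv2 probe set of Hdac11, at a bound of -1.92, lies past 2-fold.

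How far separate probe sets of a gene agreed bears on all of these values. Among the partner genes with at least 3 probe sets above the floor on both arrays of their chip, 6 of 12 had ratios of 1 sign throughout. Over all genes this was 348 of 1280, or 27.2%. The 6 were Rcor1, Sap130 and Trim28, higher on the null array, and Brms1, Phf21a and Rcor3, lower, named here after their values were seen. With at least 2 such probe sets it was 15 of 28, against 46.2% of 3997 genes. Over all genes, most thus had probe sets that differed in sign. A direction read from 1 probe set, above all a small one, may not hold in another. Of the 9 genes this account is about, only Sin3b had more than 1 probe set, so for the other 7 measured genes no second reading exists.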

How the data were processed

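The deposited values are linear intensities per probe set, 1 column for each of the 6 arrays. The software that made them is not given in the sources used here. Trimmed of 2% of values at each end, every array had a mean between 500.1 and 500.3, so the authors' intensities carry a scaling per array. Detection calls were not used. Gene names came from GEO's platform annotation, and a probe set with more than 1 symbol was left unnamed. Entrez identifiers were matched to the RefSeq table of GRCm38.p6 for 10817 of the 10833 U74Av2 probe sets with 1 symbol, for names only.

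Chips were handled separately, without their 66 control probe sets. Null values were divided by the median ratio to wild type, taken over the upper 50% of probe sets by mean rank, a log2 shift of 0.01, 0.00 and 0.02 on U74Av2, U74Bv2 and U74Cv2. The floor was 98.3, 165 and 124. Ratios with 1 array at the floor are bounds. The spread was taken from pairs of probe sets of 1 gene on 1 chip: the median of their absolute differences in log2 ratio, scaled to an SD of a single ratio, in 3 classes of level. It holds differences between probe sets and between transcripts on the same arrays, and no error that the probe sets of a gene share.

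Groups came from the sample titles, and no test was made. The genes and lists were chosen with earlier results of these data known. Beside all members and Zbtb16, the named genes were the 2 brightest for their chip from each list and, from the complex and repressor lists but not the cell type marker lists, every gene at least 2-fold different. Genes named otherwise are marked in the text. Python 3.11.15, numpy 2.4.6, pandas 2.3.3 and statsmodels 0.14.6 were used. The calculation was tested on simulated data with changes larger than 2-fold in bright probe sets. That test does not bear on the smaller shifts described here. Alternatives were values as deposited, quantile normalization, loess, other floors, other thresholds, and stricter choices of probe sets.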

Additional observations from a re-analysis of the deposited data

How the results depend on the processing

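The count of 0 deacetylase and SIN3 probe sets past 2-fold became 1 at a 20th percentile floor and 1 with no floor, in each case the dim Sin3b probe set at -1.86, and was 0 under the other settings. Their median log2 ratio stayed between -0.18 and -0.11. The count of 1 partner gene past 2-fold became 2 at a 20th percentile floor, 5 with no floor, 0 at a 60th percentile floor, 0 with probe sets above the floor on both arrays alone, 9 at 1.5-fold, and 0 without U74Cv2. For single probe sets, the 27 values under the 3 other scalings all lay within 1 spread of those reported, the largest move being 0.07 for Hdac6 after quantile normalization. Floors and choices of probe sets cannot move a probe set that is above every floor. No value exists for U74Bv2 and U74Cv2, which hold no probe set of these genes. No paired analysis was possible because each genotype has 1 array per chip, and for the same reason no array could be left out. On U74Av2, differences under about 1.2-fold lie near the spread between probe sets. The spread was larger elsewhere, at 0.27 to 0.35 on the log2 scale on U74Bv2 and 0.32 to 0.56 on U74Cv2. The spread between animals and the error that probe sets of a gene share are unknown.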

Other observations

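BTB zinc finger repressors, the family of PLZF that recruits these corepressors, had 13 of 19 measured probe sets above 0 and a median of 0.21 over the 3 chips. Beside Zbtb16, the probe sets past 2-fold were 1 of Bcl6b, which GDNF induces in spermatogonial stem cells, and 1 of Zbtb20, a repressor known from liver and brain. Both were on U74Cv2, where 11.1% of probe sets passed. Bcl6b had 365.3 on the null array and 160.7 on the wild-type array, a log2 ratio of 1.16, where the spread was 0.56. Its U74Av2 probe set read 114.8 on the null array and 75.8, under the floor, on the wild-type array, a bound of 0.21. Another Bcl6b probe set on U74Cv2 was under the floor on both arrays. Zbtb20 had 982.7 on the null array and 441.9 on the wild-type array, a log2 ratio of 1.13. The 5 other measured Zbtb20 probe sets gave -0.05 on U74Av2 and 0.21, 0.48, -0.49 and 0.40 on U74Bv2. Patz1, a BTB factor with an AT-hook, had 2991.3 on the null array and 2301.5 on the wild-type array of U74Cv2, a log2 ratio of 0.35, and gave 0.00 on U74Bv2. Zbtb33, the methyl-DNA binding factor Kaiso, had 1465.1 on the null array and 940.9 on the wild-type array of U74Bv2, a log2 ratio of 0.63.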
